A study of Homo sapiens with 6 samples.

Results

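TCIM, DACT1 and AXIN2 were followed together with 7 other modulators and effectors of Wnt signalling, AXIN1, DKK1, DVL1, DVL2, DVL3, TCF7L2 and LEF1, in UWB1.289 cells after silencing of HBO1. Members were taken by gene name, as all probes annotated to these 10 genes, which gave 15 of the 47316 probes on the array. The genes were picked with their differences between HBO1 siRNA and control siRNA already known, TCIM and DACT1 for being among the highest rises under the processing reported here. Every difference, interval and adjusted p of a member is therefore a description of the fit over the whole array and no independent evidence.

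UWB1.289 was derived from a human serous ovarian carcinoma and has no functional BRCA1. HBO1, the product of KAT7, is a histone acetyltransferase, and the series asks what its silencing does to transcripts in this line. Of 6 Illumina bead arrays, 3 carried RNA from cells transfected with a scramble siRNA (siCTRL) and 3 RNA from cells transfected with an siRNA against HBO1 (siHBO1), each collected 48 hours later from multiwell plates. Both groups thus share the transfection, the siRNAs are not described further in the sources used here, and nothing says that the replicates came from separate cultures, so that the spread between samples may be technical. Each signal is an average over all cells of a sample, so more cells with a transcript and more transcript per cell cannot be told apart.

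In canonical Wnt signalling, a ligand engages a Frizzled receptor and an LRP coreceptor, and Dishevelled proteins relay the signal to a cytoplasmic complex built on the scaffold axin. That complex otherwise marks β-catenin for destruction. Once spared, β-catenin enters the nucleus and activates genes with TCF and LEF proteins, and several of those genes, AXIN2 and DKK1 among them, encode inhibitors that feed back on the pathway.

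The siRNA target was lower in the silenced cells. The KAT7 probe (ILMN_1798187) read 467, 459 and 361 raw units on control arrays and 230, 242 and 260 on siHBO1 arrays. Its log2 difference was -1.87 (SE 0.20, limma adjusted p = 0.0187). The probe was detected on 3 of 3 control and 2 of 3 siHBO1 arrays, and without background correction the difference was -0.74. KAT7 lost its call without control replicate 2 (adjusted p = 0.0967), control replicate 3 (0.0855), siHBO1 replicate 1 (0.0595) or siHBO1 replicate 2 (0.0605). In these fits between 1 and 6 probes were called over the whole array. Between 20546 and 21507 probes were detected per array. Of 10 epithelial and ovarian carcinoma markers, 9 were detected on all 6 arrays, among them PAX8, MUC16 and KRT7, and WT1 was detected on 4. MUC16 (1.33) and CDH1 (0.76) were higher in siHBO1 cells on the log2 scale and passed the test. Over all tested genes 3.19% passed, 1.91% as higher and 1.28% as lower. Of the markers of fibroblasts, leukocytes and endothelium, 0 passed the test by limma, and COL3A1, LUM, PDGFRB, PTPRC, CD3E, LYZ, KDR and TEK were detected on 0 arrays. From the same lists COL1A2, CD14, CD68, PECAM1 and CDH5 were detected on all 6 arrays, COL1A1 on 5, DCN on 3 and VWF on 2.

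Promoter sequences were looked up in RefSeq for assembly GRCh38.p14 because 3 separate start sites are listed for DACT1, whose probes did not behave alike. A further reason was that DKK1 was lower in mean signal, though neither of its probes passed the test. Of the 10 genes, 8 matched, with 12 windows that run from 250 bases before a start to 50 bases after it. TCIM and AXIN2 had no window among the promoter sequences used, so neither was searched for the motifs. All windows were searched on both strands for the TCF/LEF core motifs CTTTGAT and CTTTGTT, which differ in 1 letter and so cannot match the same position. CTTTGAT occurs in 2.62% of all 35116 windows in the table and in 0 of the 12 member windows. CTTTGTT occurs in 5.2% of all windows and in 2 of the 12, once before the DKK1 start, from base -76 to base -70, and once before a TCF7L2 start, from base -133 to base -127. The 250 bases before each DACT1 and DKK1 start are printed 5′ to 3′ in lower case, with the motif match in capitals.
DACT1 chr14:58633811-58634060, plus strand: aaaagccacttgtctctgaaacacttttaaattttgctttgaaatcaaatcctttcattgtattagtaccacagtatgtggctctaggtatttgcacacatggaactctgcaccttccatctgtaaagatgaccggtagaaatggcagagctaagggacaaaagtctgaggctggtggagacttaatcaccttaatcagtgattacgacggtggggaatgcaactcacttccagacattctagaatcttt
DACT1 chr14:58637712-58637961, plus strand: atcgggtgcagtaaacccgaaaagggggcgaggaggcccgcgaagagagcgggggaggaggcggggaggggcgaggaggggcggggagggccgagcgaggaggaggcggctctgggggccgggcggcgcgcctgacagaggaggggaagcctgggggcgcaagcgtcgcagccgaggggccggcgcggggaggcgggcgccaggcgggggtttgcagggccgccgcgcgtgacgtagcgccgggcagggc
DACT1 chr14:58638587-58638836, plus strand: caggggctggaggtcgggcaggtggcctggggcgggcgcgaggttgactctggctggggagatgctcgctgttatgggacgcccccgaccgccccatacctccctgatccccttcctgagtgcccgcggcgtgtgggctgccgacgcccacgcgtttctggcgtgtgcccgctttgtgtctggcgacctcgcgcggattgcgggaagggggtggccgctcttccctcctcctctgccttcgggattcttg
DKK1 chr10:52314031-52314280, plus strand: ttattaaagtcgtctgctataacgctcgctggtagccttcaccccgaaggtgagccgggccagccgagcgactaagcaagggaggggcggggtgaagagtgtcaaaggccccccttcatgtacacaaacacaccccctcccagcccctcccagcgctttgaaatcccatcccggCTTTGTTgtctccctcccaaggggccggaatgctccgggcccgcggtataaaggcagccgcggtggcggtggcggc
The 3 DACT1 stretches differ in composition, with 3, 33 and 24 CpG dinucleotides from the first to the last in genome order, against a median of 11 over all windows. A motif match is a description of letters and not of a bound site. The annotation assigns all 3 DACT1 probes to the same RefSeq transcript and does not name a start for each probe. Whether the starts bear on the difference between probes was not tested.

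TCIM, a small protein which promotes β-catenin signalling by binding the β-catenin antagonist Chibby, was the member with the largest rise. Its only probe (ILMN_1656369) read 254, 239 and 219 raw units on the control arrays and 403, 644 and 470 on the siHBO1 arrays. Every siHBO1 array lay above every control array, and the second siHBO1 replicate stood highest. The detection p, by its usual definition the share of negative control probes at least as bright, was 0.0364, 0.119 and 0.145 in controls and 0 on all siHBO1 arrays. With a detection p under 0.05 taken as detected, 1 of 3 control arrays and 3 of 3 siHBO1 arrays thus detected TCIM. After background correction and quantile normalisation its log2 intensity was 5.57 ± 0.22 (SD, n = 3) in control cells and 8.29 ± 0.61 (SD, n = 3) in siHBO1 cells. The log2 difference was 2.72 (SE 0.29) and the fold 6.60, with a 95% interval from 4.08 to 10.7. The control level lay at background, so the size of this fold hung on how background was removed: without background correction the log2 difference was 1.14.

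DACT1 binds Dishevelled and is known both to promote its degradation and to modulate signalling in other ways. It has 3 probes on the array, and 2 of them were higher in siHBO1 cells. Probe ILMN_1801068 read 264, 232 and 214 raw units in controls and 376, 331 and 396 in siHBO1 cells, and probe ILMN_2328094 read 236, 229 and 223 against 366, 290 and 335. For both probes the groups were separate. The log2 intensity of ILMN_1801068 was 5.56 ± 0.40 (SD, n = 3) in controls and 7.56 ± 0.11 (SD, n = 3) in siHBO1 cells, a difference of 2.00 (SE 0.20). That is a fold of 4.01 with a 95% interval from 2.90 to 5.53. ILMN_2328094 went from 5.40 ± 0.12 (SD, n = 3) to 7.20 ± 0.28 (SD, n = 3), a log2 difference of 1.80 (SE 0.16). It was detected on 0 of 3 control arrays, so its fold is a bound: at least 2.69-fold higher, counting from the lowest detected signal of the control arrays. ILMN_1801068 was detected on 1 of 3 control arrays, and both probes on 3 of 3 siHBO1 arrays. Without background correction the log2 differences of these probes were 0.71 and 0.59.

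The remaining DACT1 probe gave no signal over background in either group. ILMN_2250344 read 238, 226 and 204 raw units in controls and 209, 182 and 232 in siHBO1 cells, with overlapping groups. Its detection p lay between 0.110 and 0.400, it was detected on 0 of 6 arrays, and it was not tested. The annotation assigns all 3 probes to the same RefSeq transcript, and probe sequences are not analysed here, so whether they read the same end or isoform of DACT1 was not tested.

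**Figure D1:**
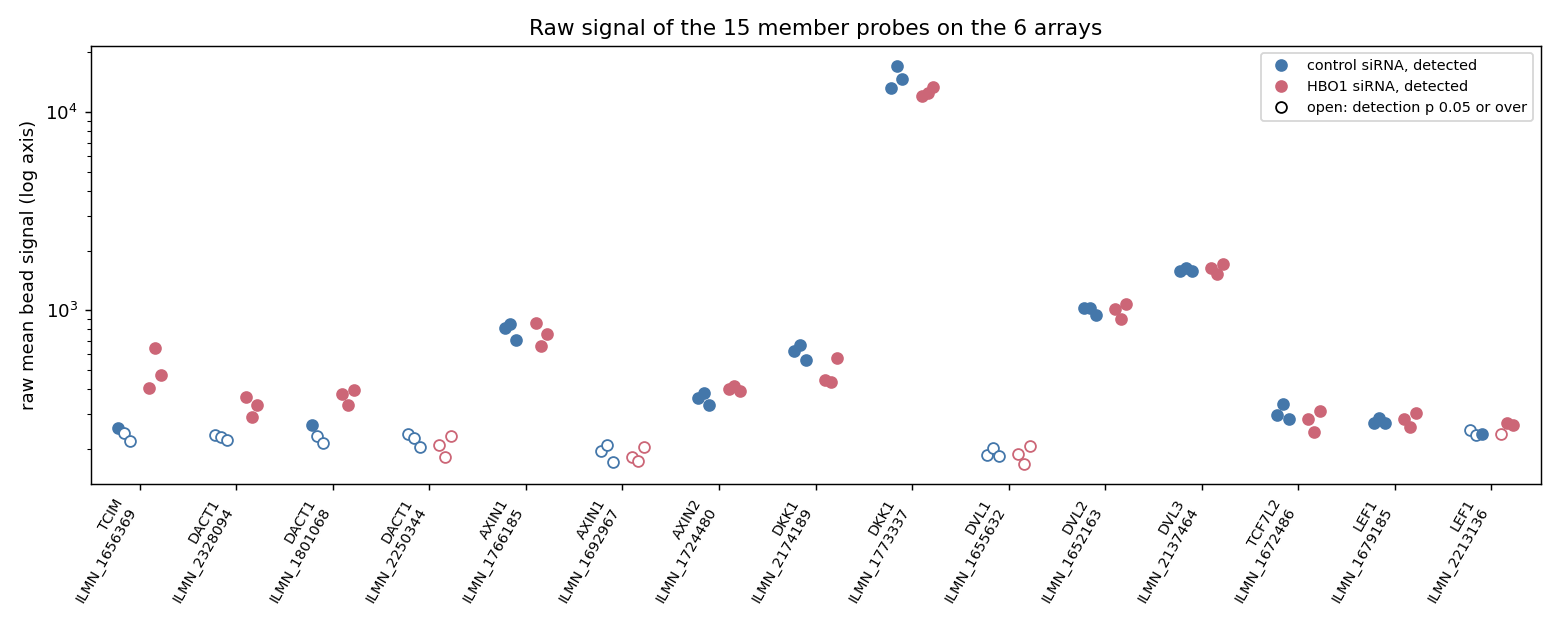
Raw mean bead signal (log axis) of the 15 member probes on each of the 6 arrays, 3 control siRNA (blue) and 3 HBO1 siRNA (red); filled points were detected and open points were not. TCIM and 2 DACT1 probes rise from mostly open control points to filled siHBO1 points, while 3 probes, 1 each of DACT1, AXIN1 and DVL1, are open on all arrays.

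The axins showed smaller values. AXIN2, the inducible axin that is transcribed in response to β-catenin and limits the pathway, is read by a single probe (ILMN_1724480). It gave 360, 380 and 331 raw units in controls and 402, 415 and 393 in siHBO1 cells, and was detected on all 6 arrays. The siHBO1 arrays were all above the control arrays, in raw signal and after normalisation. Its log2 intensity was 7.33 ± 0.09 (SD, n = 3) in controls and 7.81 ± 0.21 (SD, n = 3) in siHBO1 cells. The log2 difference of 0.48 (SE 0.13), a fold of 1.40 with a 95% interval from 1.14 to 1.72, did not pass the threshold over the whole array (limma adjusted p = 0.0907). It passed when only probes detected at p under 0.01 on all 6 arrays were tested (adjusted p = 0.0493), and without background correction the difference was 0.25.

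AXIN1, the constitutive axin scaffold of the destruction complex, was read by 2 probes, of which 1 gave a signal. ILMN_1766185 read 814, 854 and 706 raw units in controls and 865, 661 and 761 in siHBO1 cells, and the groups overlapped. The log2 difference was 0.04 with a 95% interval from -0.27 to 0.34, which leaves room for a fold between 0.830 and 1.27, and its sign turned with median scaling (-0.030) and without siHBO1 replicate 1 (-0.088). The other AXIN1 probe (ILMN_1692967), annotated to another RefSeq transcript, lay between 171 and 209 raw units with detection p from 0.521 to 0.975 and was detected on 0 arrays.

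DKK1, a secreted antagonist that binds the LRP coreceptors and is itself a β-catenin target, was lower in mean signal on both of its probes, and neither passed the test. Probe ILMN_2174189 read 620, 668 and 561 raw units in controls and 443, 433 and 575 in siHBO1 cells. In raw signal the groups overlapped, since the third siHBO1 replicate was above the lowest control, and after normalisation they did not. The log2 intensity was 8.69 ± 0.07 (SD, n = 3) in controls and 8.25 ± 0.27 (SD, n = 3) in siHBO1 cells, a difference of -0.44 (SE 0.15, 95% interval -0.78 to -0.10, limma adjusted p = 0.150). Probe ILMN_1773337 read 13234, 17071 and 14665 raw units in controls and 12096, 12522 and 13301 in siHBO1 cells. Its groups overlapped, and the log2 difference was -0.14 with a 95% interval from -0.43 to 0.14. Both probes were detected on every array. The CTTTGTT letters printed for the DKK1 promoter are the only match of either motif among the DACT1 and DKK1 windows. The other member match lies before a TCF7L2 start and is not printed. TCF7L2 was also lower in mean and did not pass. Whether the motif bears on the level of either gene was not tested.

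The Dishevelled proteins, the relays between receptor and destruction complex and the partners of DACT1, showed differences within a narrow interval where they could be measured. DVL2 (ILMN_1652163) read 1025, 1025 and 942 raw units in controls and 1010, 902 and 1080 in siHBO1 cells. DVL3 (ILMN_2137464) read 1573, 1632 and 1572 in controls and 1626, 1530 and 1707 in siHBO1 cells. Groups overlapped for both genes. The log2 difference was 0.10 for DVL2 (95% interval -0.11 to 0.31) and 0.13 for DVL3 (95% interval -0.08 to 0.35), so the intervals end at folds of 1.24 and 1.28. The DVL1 probe (ILMN_1655632) lay between 167 and 206 raw units, with detection p from 0.517 to 0.952, and was detected on 0 of 6 arrays, so that a difference in DVL1 was not detectable.

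The nuclear partners of β-catenin among the members gave signals not far above background. TCF7L2 (ILMN_1672486), the TCF protein of many epithelia, read 297, 336 and 284 raw units in controls and 284, 242 and 309 in siHBO1 cells. Its log2 difference was -0.20 with a 95% interval from -0.60 to 0.21, and the groups overlapped. LEF1, a related factor that is also a β-catenin target, has 2 probes. ILMN_1679185 read 269, 285 and 270 raw units in controls and 282, 259 and 302 in siHBO1 cells, with a log2 difference of 0.30 (SE 0.12, limma adjusted p = 0.210). ILMN_2213136 read 249, 235 and 237 in controls and 237, 270 and 265 in siHBO1 cells, with a log2 difference of 0.55 (SE 0.25, limma adjusted p = 0.270). Both LEF1 probes were higher in mean and neither passed. The groups of ILMN_1679185 overlapped in raw signal but not after normalisation, and ILMN_2213136 was detected on 1 of 3 control and 2 of 3 siHBO1 arrays. Without background correction these differences were 0.10 and 0.16 for LEF1 and -0.07 for TCF7L2.

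**Figure D2:**
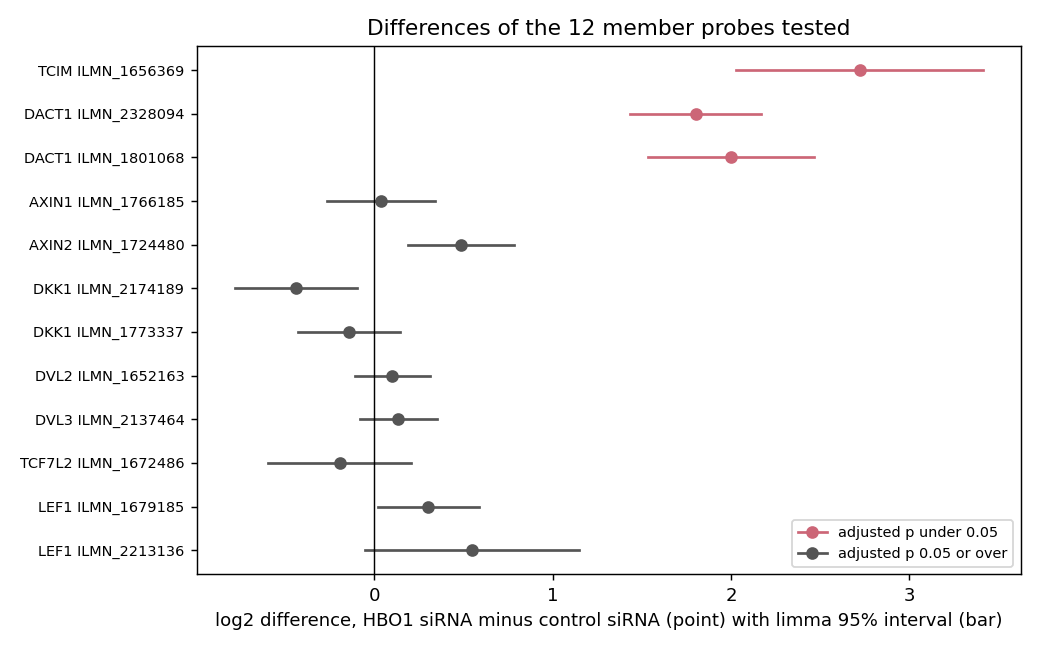
Log2 difference of each of the 12 tested member probes, HBO1 siRNA minus control siRNA (n = 3 arrays each), with limma's 95% interval as a bar; red marks an adjusted p under 0.05. TCIM and 2 DACT1 probes lie between 1.80 and 2.72, AXIN2 at 0.48, and the other 8 between -0.44 and 0.55.

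Of the 15 member probes, 12 passed the detection filter and were tested, covering 9 of the 10 genes, and 3 did not. In the fit over all probes 3 member probes, those of TCIM and DACT1, were higher with limma adjusted p from 0.0149 to 0.0187 and 0 were lower, while 9 did not pass. The background was 2.73% of all tested probes called, 1.47% as higher and 1.26% as lower. That split, 314 higher and 268 lower probes, became 235 and 379 with median scaling, and 189 and 93 with a replicate block in the fit. After normalisation the groups did not overlap for 6 of the 12, against 27.1% of all tested probes. Since the genes were picked on this contrast, and since a probe absent in one group passes the filter only through the other, nothing is read from these counts. TCIM lost its call without control replicate 2 (adjusted p = 0.0967), control replicate 3 (0.0855) or siHBO1 replicate 1 (0.0563). DACT1 ILMN_1801068 lost it in the same cases (0.0967, 0.0855 and 0.0614) and without siHBO1 replicate 2 (0.0662), and ILMN_2328094 lost it without control replicate 2 (0.0967), control replicate 3 (0.0855) or siHBO1 replicate 2 (0.0605). Without control replicate 2 or control replicate 3, 1 probe was called over the whole array. Without siHBO1 replicate 1 it was 6 probes, and without siHBO1 replicate 2 it was 3. The log2 differences themselves stayed between 2.38 and 2.96 for TCIM, 1.88 and 2.23 for ILMN_1801068, and 1.64 and 1.91 for ILMN_2328094.

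**Figure D3:**
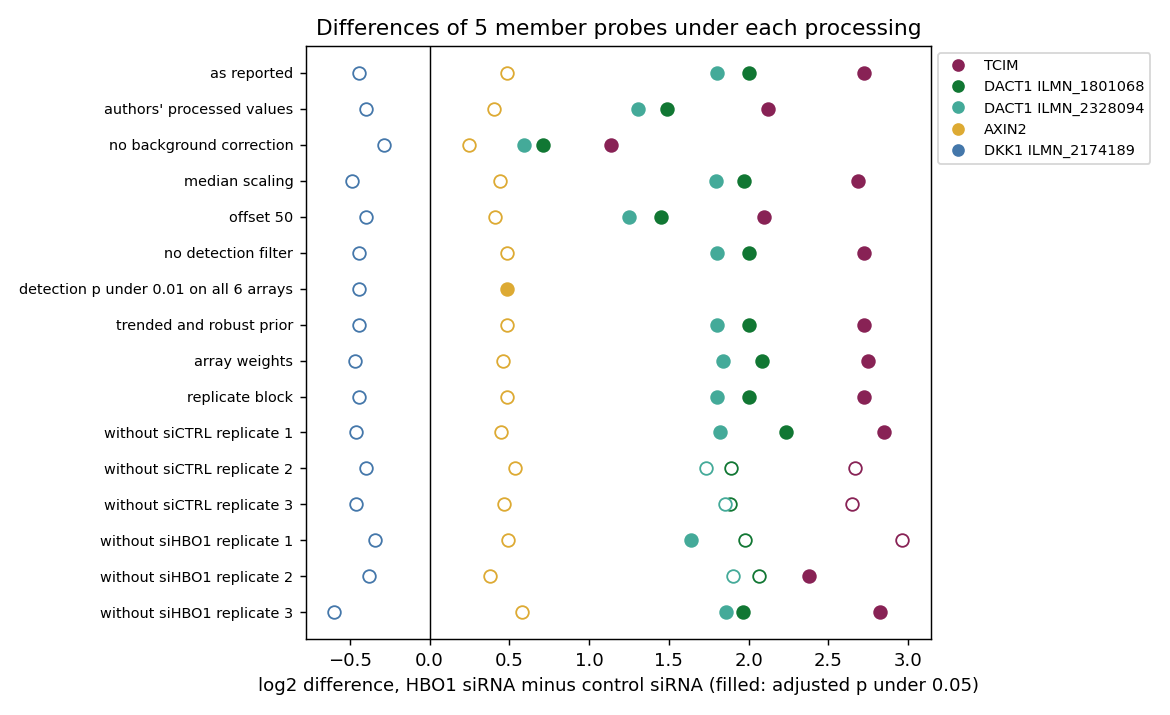
Log2 difference (HBO1 siRNA minus control siRNA) of 5 member probes under the reported processing and each alternative; filled points have an adjusted p under 0.05, and a missing point was not tested. TCIM stays between 1.14 and 2.96 and its smallest value comes without background correction, AXIN2 stays between 0.25 and 0.58, and DKK1 ILMN_2174189 stays below 0.

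The genes whose levels over the 6 arrays were most like those of the 3 leading members were found by Pearson correlation of normalised log2 intensity with each member's brightest probe, over 12226 other genes. These correlations are descriptions of 6 arrays that share 1 group difference, and 771 genes had r over 0.9 with TCIM, 704 with DACT1 and 516 with AXIN2. Most like TCIM were DOCK11, an activator of CDC42 (r = 0.996), CNTNAP1, an axonal adhesion protein (0.996), CBX2, a Polycomb chromodomain protein (0.996), CRYAB, a small heat shock protein (0.995), and MEA1 (0.994). Most like DACT1 were ZFYVE26, the endosomal protein spastizin (0.995), ENTREP1 (0.995), SYT1, a vesicle calcium sensor (0.994), MERTK, a receptor tyrosine kinase (0.993), and HCP5, a noncoding RNA of the MHC region (0.991). AXIN2 was most like TIMP2, an inhibitor of metalloproteinases (0.9998), CBR3, a carbonyl reductase (0.996), NSG1, an endosomal protein of neurons (0.995), LIMS3 (0.992) and H2BC21, a histone H2B (0.990). The log2 differences of the 5 genes nearest to TCIM lay between 0.22 for MEA1 and 0.69 for DOCK11. Those of the 5 nearest to DACT1 lay between 0.51 for ZFYVE26 and 0.94 for SYT1. TCIM (2.72) and DACT1 (2.00) were picked for being among the highest rises, so lower values in other genes follow from that choice. The log2 differences of the 5 genes nearest to AXIN2 lay on both sides of its 0.48, from 0.27 for TIMP2 to 1.06 for NSG1.

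The rest of the Wnt pathway was read from 7 lists with 143 distinct genes, of which 93 were tested, each by its brightest probe. Of these, 6 rose and 2 fell by limma at an adjusted p under 0.05. Over all 12227 tested genes 3.19% were called, 1.91% higher and 1.28% lower. All 7 lists were chosen with earlier results of these data known, so nothing is read from these counts or from those of each list. Without siHBO1 replicate 3, 7 genes of the lists were called, of which 5 were among these 8, and AMER1, HBP1 and TNFRSF19 were lost. On leaving out any other array limma called 0.

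In the destruction complex, 1 of 13 tested genes fell, 0 rose and 12 did not pass, with a median log2 difference of 0.02 against 0.01 over all genes. The fall was that of AMER1, a membrane-associated partner of APC, from 8.96 ± 0.13 to 8.30 ± 0.10 (SD, n = 3 each), which is -0.66 (SE 0.11, adjusted p = 0.0334 by limma). AMER1 lost its call when all probes were tested without a detection filter (adjusted p = 0.0558). CTNNB1, the gene of β-catenin itself, chosen after its values were seen, had a log2 difference of -0.0021 (SE 0.11).

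Among 20 tested nuclear partners of β-catenin, 2 rose, 0 fell and 18 did not pass, with a median of 0.06. HBP1, a repressor that binds TCF proteins, rose from 10.3 ± 0.09 to 11.0 ± 0.09 (SD, n = 3 each), a log2 difference of 0.64 (SE 0.10, limma adjusted p = 0.0288). TLE4, a Groucho corepressor that TCF proteins recruit when β-catenin is absent, rose by 0.62 (SE 0.09, limma adjusted p = 0.0288). For each gene a second probe passed as well, at 0.50 for HBP1 and 0.62 for TLE4. With a replicate block in the fit, the calls of HBP1 (adjusted p = 0.0582) and TLE4 (0.0570) were lost.

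Dishevelled partners and planar polarity genes had the highest list median, 0.47 over 13 tested genes, against 0.01 over all genes, and the median over this list was 0.20 without background correction and 0.14 without a detection filter. CELSR3, a cadherin of the planar polarity pathway, rose by 0.80 (SE 0.12, limma adjusted p = 0.0306), 0 fell and 12 did not pass. Before adjustment, 7 were higher at a p under 0.05 and 0 were lower, against 12.9% and 10.9% of all tested genes. This list, like the others, was chosen with earlier results of these data known, and a gene dim in either group can pass the filter through the other group. Nothing is therefore read from this count or from the list median. DACT3, the paralog of DACT1, had a log2 difference of 0.58 (SE 0.14, limma adjusted p = 0.0796), and CELSR2 one of 0.65 (SE 0.14, limma adjusted p = 0.0596), both chosen after their values were seen.

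Of 21 tested β-catenin target genes, 2 rose, 1 fell and 18 did not pass, with a median of 0.01, so that the list held values in both directions. ID2, an inhibitor of basic helix-loop-helix factors, rose from 9.75 ± 0.26 to 11.0 ± 0.24 (SD, n = 3 each), which is 1.28 on the log2 scale (SE 0.17) or 2.44-fold (limma adjusted p = 0.0243), and its second probe passed at 1.13. TNFRSF19, a TNF receptor family member, rose by 1.10 (SE 0.15, limma adjusted p = 0.0254). FOSL1, the AP-1 subunit FRA1, fell by 1.12 (SE 0.22, limma adjusted p = 0.0487), and its call was lost with a replicate block in the fit (adjusted p = 0.0508) and without a detection filter (0.0778). MMP7, a matrix metalloproteinase, and CCND2, a G1 cyclin, passed on a dimmer probe at 1.16 and -0.74 but not on their brightest, at 1.01 and -0.39, and both were chosen after their values were seen.

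Secreted antagonists and R-spondin pathway genes were mostly below the detection filter, with 9 of 26 tested. In limma's test 0 rose and 0 fell, and before adjustment 1 was higher at a p under 0.05 and 0 were lower, beside the same 12.9% and 10.9% of all tested genes. The largest values were 0.71 for LGR6, an R-spondin receptor (SE 0.23, limma adjusted p = 0.139), and -0.31 for DKKL1, a DKK-like protein (SE 0.19). LGR6 was detected on 1 of 3 control and 3 of 3 siHBO1 arrays, so it met the detection filter through the siHBO1 group. DKKL1 was detected on 3 of 3 control and 2 of 3 siHBO1 arrays. LGR6 passed without siHBO1 replicate 3 (0.96, adjusted p = 0.0492), and without background correction the values were 0.21 and -0.09.

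Of 21 Wnt ligand and secretion genes, 6 were tested, and 0 rose and 0 fell by limma, while before adjustment 1 was higher and 1 lower at a p under 0.05, with 12.9% and 10.9% over all tested genes. WNT10A had a log2 difference of 0.96 (SE 0.29, limma adjusted p = 0.118) with overlapping groups, and WNT3 one of -0.47 (SE 0.16, limma adjusted p = 0.151). WNT10A passed without background correction (0.64, adjusted p = 0.0336) and with a trended and robust prior (adjusted p = 0.0361). Among 13 Frizzled receptors and coreceptors tested, FZD7 rose by 0.84 (SE 0.10, limma adjusted p = 0.0210) on its brightest probe, and 0 fell. A second FZD7 probe was at 0.02, and the mean over both was at 0.43 (adjusted p = 0.0254).

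**Figure D4:**
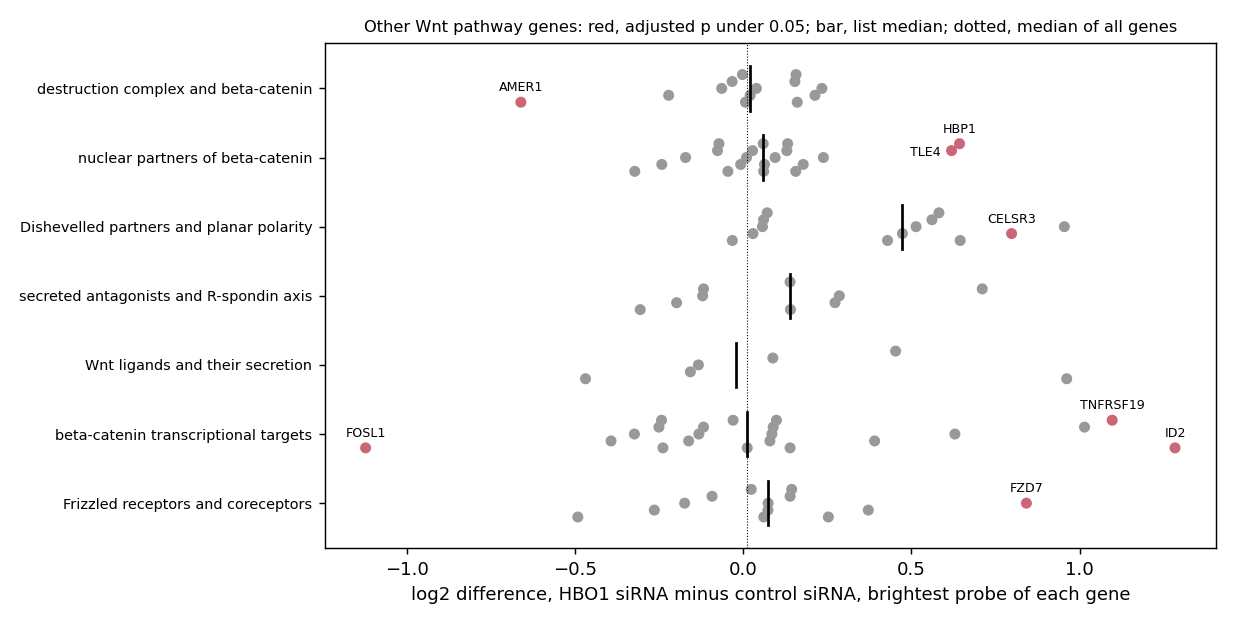
Log2 difference (HBO1 siRNA minus control siRNA) of the 93 other Wnt pathway genes tested, in 7 lists, some genes being in more than 1 list; red points have an adjusted p under 0.05, the bar is the list median and the dotted line the median of all genes. The medians lie between -0.02 and 0.47, and the called genes are ID2, TNFRSF19, FZD7, CELSR3, HBP1 and TLE4 on the right and AMER1 and FOSL1 on the left.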

How the data were processed

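The intensity values, mean bead signals per probe and array, and their detection p-values come from 1 deposited table and are named so per the file headers; array medians differ and the lowest values lie far above 0, so it was taken as not normalised. A second deposited table holds the authors' processed values, taken from their range and shared median to be normalised log2 intensity, and served as an alternative. Per the submitters' processing notes GenomeStudio and lumi were used, without a stated version.

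Background correction and quantile normalisation were done with neqc (limma 3.58.1, R 4.3.3), which inferred negative controls from the detection p; the offset of 16 compresses dim signals. The 21333 probes detected at p under 0.05 on at least 3 of 6 arrays were fitted with lmFit and eBayes on 2 group means, siHBO1 minus siCTRL, with Benjamini-Hochberg adjustment over all of them. Standard errors and intervals are limma's moderated ones. The fit was also run on simulated data with independent normal errors, which says nothing on effects shared between replicates. The number of arrays limits the precision.

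Of 47316 probes, 30109 had 1 symbol in the platform annotation and 8 had several; 17199 had none. Symbols of 30070 were updated through RefSeq (GRCh38.p14). No build is named for the probes, and levels of different probes were not compared. The members and the 7 lists were chosen with earlier results of these data known. Named were KAT7, all member probes, cell type markers, and the 5 genes most like TCIM, DACT1 and AXIN2. Per list, up to 3 called genes with the largest change were named, or 2 with the largest values where 0 were called. CTNNB1, DACT3, CELSR2, MMP7 and CCND2 were added after their values were seen.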

Additional observations from a re-analysis of the deposited data

How the results depend on the processing

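Other settings moved the number of probes called over the whole array (582) more than the sign of member differences. It was 979 with the authors' processed values, 1811 without background correction, 614 with median scaling, 1020 with an offset of 50, 247 without a detection filter and 1136 with a detection p under 0.01 on all 6 arrays. It was 1886 with a trended and robust prior, 913 with array weights, 1665 at an adjusted p of 0.10 and 2 at 0.01, and it lay between 1 and 268 on leaving out 1 array. The 3 member calls became 1, that of AXIN2 (log2 difference 0.48, adjusted p = 0.0493), with the stricter detection filter, under which TCIM, DACT1 and KAT7 were not tested; they became 0 at an adjusted p of 0.01 and between 0 and 3 on leaving out 1 array. Over the leave-one-out fits TCIM lay between 2.38 and 2.96, DACT1 between 1.88 and 2.23, AXIN2 between 0.38 and 0.58 and KAT7 between -2.04 and -1.69; AXIN1 reversed with median scaling (-0.030) and ranged from -0.088 to 0.13. The 8 called genes of the other Wnt lists became 14 without background correction and 14 with a trended and robust prior, and 0 to 7 on leaving out 1 array. Replicate numbers were examined as a pairing. Same-numbered arrays had correlations of deviations of 0.26, -0.02 and 0.22, and control replicate 2 was more like siHBO1 replicate 3 (0.09). For numbers 1 and 3 the same-numbered pair had the highest correlation. These 6 arrays cannot decide whether same-numbered arrays were paired. With the replicate block 282 probes were called, and TCIM and DACT1 kept their calls (adjusted p = 0.0443). The causes were not tested. Signal over background limits DVL1, 1 AXIN1 and 1 DACT1 probe, for which no difference could be detected, and the folds of TCIM, DACT1 and KAT7.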
